A study of Mus musculus with 13 samples.

Results

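The clustered replication histone genes were taken as every gene whose symbol begins with Hist1h, Hist2h, Hist3h or Hist4h in the table of 18649 genes, and 46 genes met that rule. By histone type they are 5 H1, 10 H2A, 14 H2B, 7 H3 and 10 H4 genes, and 1 of the H2B genes, Hist3h2bb-ps, is a pseudogene. RNA was sequenced from CD4 T cells sorted from mouse spleen into 3 populations by surface PD-1, an inhibitory receptor of activated T cells, and by a GFP reporter of Foxp3, the transcription factor of regulatory T cells. The PD1hi cells (3 libraries) were high for PD-1 and negative for the reporter, the regulatory T cells (here Treg, 5 libraries) carried the reporter and no PD-1, and the conventional T cells (here Tconv, 5 libraries) were negative for both. All cells were sorted by the same reporter, no treatment is named, and the sources used here give no age, sex, strain or number of animals. Experiments 3, 5 and 6 of the titles each hold every population, and 4 Treg or Tconv libraries are called a replicate of another library. It is not stated whether such a pair is another animal, and p-values therefore reflect only the spread over these samples, part of which may be technical.

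The replication-dependent histones package newly made DNA. H3 with H4 and H2A with H2B form the core of the nucleosome, and H1 binds the linker DNA between nucleosomes. Their genes lie in clusters, mostly lack introns, and are transcribed chiefly while DNA is copied. Their mRNAs usually end in a short stem-loop in place of a poly(A) tail, and the stem-loop binding protein Slbp holds that element. Some of these genes also give longer, polyadenylated mRNAs in cells that have stopped dividing. Resting T cells divide little, and activated T cells pass through repeated rounds of DNA replication. Per the labels' protocols, ribosomal RNA was depleted from total RNA, and no poly(A) selection is named.

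The stem-loop was read from the longest transcript of each gene in GENCODE M21 (GRCm38), protein-coding where annotated. It is the element that sets these mRNAs apart from others. It was found in the annotated transcript of 34 of the 46 genes and after an annotated stop codon in 33, with all 10 H4 and 6 of the 7 H3 genes among the 33. The other one, Hist2h3c1, was matched by its deposited gene ID to Gm20634, whose transcript has no annotated stop codon. The transcript of the H3 gene itself was not read. The 16 bases of the stem-loop are in capitals, with 5 bases on each side, for members of each type on which the results below turn.
Hist1h1c: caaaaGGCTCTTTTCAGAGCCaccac
Hist1h1e: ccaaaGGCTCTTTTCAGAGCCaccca
Hist3h2a: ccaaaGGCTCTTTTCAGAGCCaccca
Hist1h2bj: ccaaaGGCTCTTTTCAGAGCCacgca
Hist1h3e: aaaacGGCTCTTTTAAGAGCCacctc
Hist2h4: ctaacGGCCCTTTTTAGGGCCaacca
Hist1h4d: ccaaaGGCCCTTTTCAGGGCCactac
The H1, H2A, H2B and H3 examples share the stem GGCTCT and its complement, while Hist2h4 and Hist1h4d carry GGCCCT. No stem-loop was found for Hist1h1b and Hist1h2ai, whose annotated transcripts stop at the stop codon. None was found for Hist1h2bc either, whose longest annotated transcript has 2 exons. Shorter transcripts were not searched.

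Levels are scaled counts, that is reads divided by the authors' size factor of the library, and a mean ± SD is over 3 experiments (n = 3). The 46 genes together had few reads. Their summed scaled count was 1335 ± 177 in PD1hi, 1407 ± 107 in Treg and 1717 ± 201 in Tconv, and the share of all reads in genes ran from 0.00596% to 0.00983% over the 13 libraries. In contrast, 10 histone genes outside the clusters held 0.179% to 0.243% of reads. The highest of these 10, H3f3b, had a mean scaled count of 27327 over the populations, and the next, H2afz, had 4676. A mean scaled count of at least 10 was reached by 24 of the 46 genes, which were tested: all 5 H1, 5 H2A, 8 H2B, 1 H3 and 5 H4 genes. The other 22, with means from 0.832 to 9.26, were not tested.

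The summed level was split by histone type. The 10 H4 genes summed to 444 to 543 in the 5 Tconv libraries, 269 to 383 in the 5 Treg libraries and 284 to 363 in the 3 PD1hi libraries. Every Tconv library lay above every library of the other populations. H2B ran in the order Tconv (375 ± 24), Treg (309 ± 38.7) and PD1hi (244 ± 43.6), and no PD1hi library (at most 281) reached the lowest Tconv library (318). H1 sums were 457 ± 85.1 in PD1hi, 420 ± 57.7 in Treg and 474 ± 156 in Tconv, and their libraries overlapped throughout. The H2A sum was 278 ± 20.8 in PD1hi, 334 ± 17.0 in Treg and 316 ± 25.6 in Tconv, with overlapping libraries. The 7 H3 genes summed to only 33.4 ± 20, 30.8 ± 6.09 and 54.6 ± 17.8 in the same order. A sum over chosen genes received no test.

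**Figure D1:**
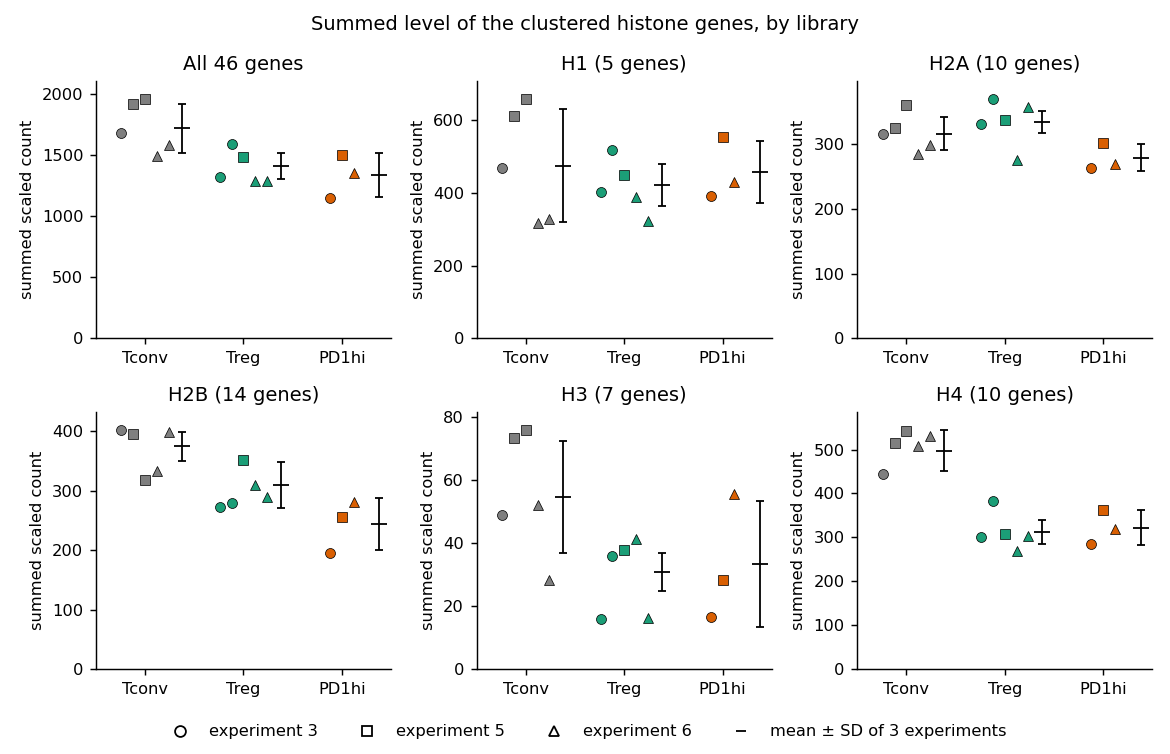
Summed scaled count (y axis) of all 46 clustered histone genes and of each histone type, by population (x axis). Each point is 1 library, its shape gives the experiment, and the bar is the mean ± SD of 3 experiments. The Tconv libraries of H4, at 444 to 543, sit above all Treg and PD1hi libraries, while the H1 libraries overlap.

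Single genes were compared with limma over all 14177 genes tested, with Benjamini-Hochberg adjusted p under 0.05 as the threshold. Fold changes are on the log2(scaled count + 1) scale with their SE, and this scale understates the change of low genes. In PD1hi against Tconv, 4 of the 24 clustered histone genes were higher (16.7%), beside 14.2% of all genes tested, and 5 were lower (20.8%), beside 11.9%. The higher genes were Hist1h1b, Hist1h1e, Hist1h2ai and Hist1h2bj, and the lower genes were Hist1h1c, Hist3h2a, Hist1h2bc, Hist1h3e and Hist2h4. H1, H2A and H2B each held genes of both directions. The median log2 fold change of the 24 genes was -0.51, and that of all genes tested was 0. With libraries rescaled to equal totals, which moves the median of all genes by 0.143, the 24 genes again gave 4 higher and 5 lower, while the calls over all genes went from 2012 higher and 1688 lower to 2457 and 1299. All 9 genes had the same sign in each of the 3 experiments. They were called on these same values, so the shared sign is no further support. Members that were not called, such as Hist2h2be, also kept their sign in all 3. The count of higher genes rests on few values: it was 1 on leaving out either PD1hi in experiment 5 or Tconv in experiment 6, and 2 on leaving out Tconv in experiment 3. In these bulk libraries, fewer cells of a type and less RNA per cell cannot be told apart.

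**Figure D2:**
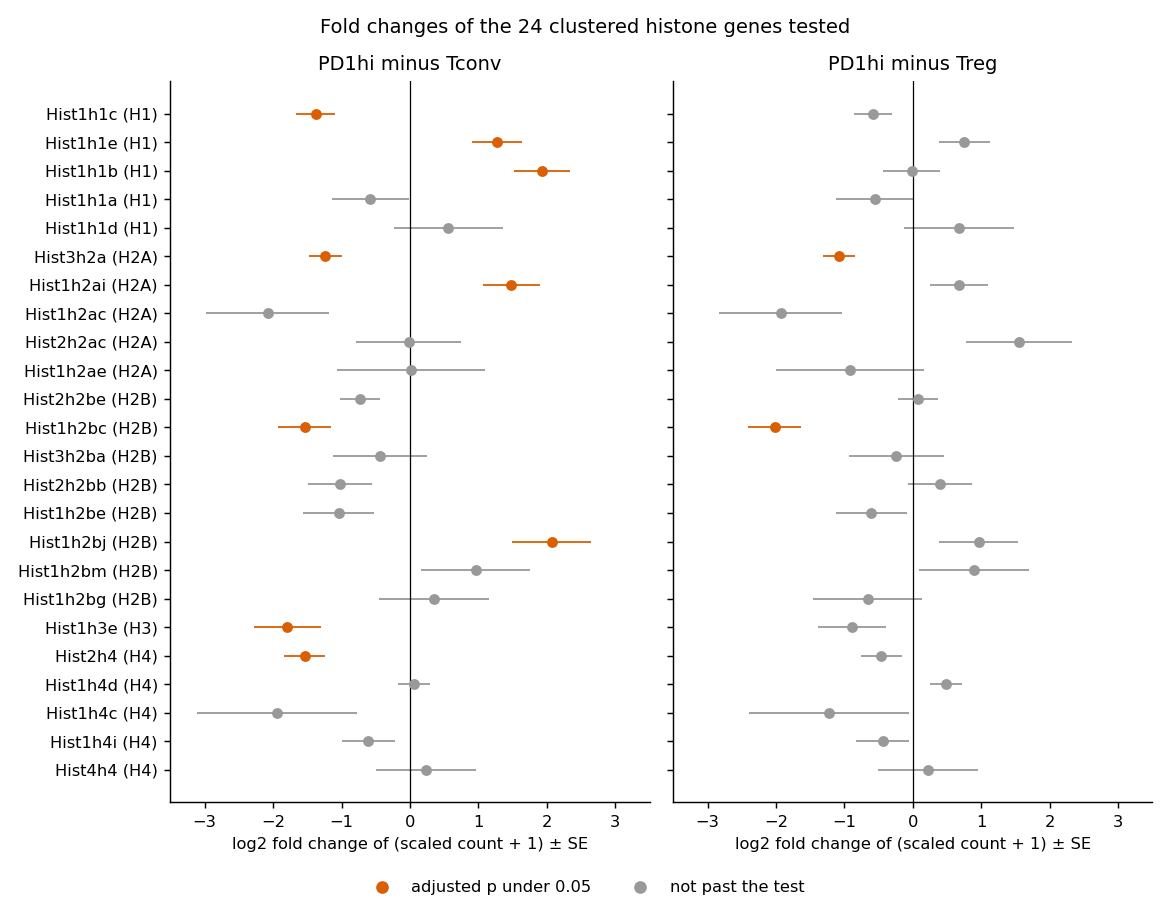
Log2 fold change ± SE (x axes) of the 24 clustered histone genes tested, grouped by histone type (y axis), for PD1hi against Tconv (left) and PD1hi against Treg (right). Orange points have a limma adjusted p under 0.05: 9 genes on both sides of 0 at left, and only Hist3h2a and Hist1h2bc at right.

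Library values follow the order of experiments 3, 5 and 6, with second libraries of Treg in 3 and 6 and of Tconv in 5 and 6. The H1 genes encode linker histones, and 3 of the 5 differed between PD1hi and Tconv, in opposite directions. Hist1h1b was at 15.98, 23.8, 34.1, 13.02 and 11.1 in the Tconv libraries, at 88.0, 118, 58.3, 59.9 and 61.4 in the Treg libraries and at 74.8, 89.9 and 52.2 in the PD1hi libraries. All Tconv libraries were low, and none reached a library of the other populations. The log2 fold change was 1.93 ± 0.41 in PD1hi against Tconv (limma adjusted p = 0.00404) and 1.95 ± 0.41 in Treg against Tconv (limma adjusted p = 0.00656). The PD1hi and Treg libraries overlapped, with a log2 difference of -0.02 ± 0.41 (limma adjusted p = 0.985).

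For Hist1h1e the PD1hi libraries were at 182, 262 and 234, the Treg libraries at 121, 123, 175, 136 and 83.0, and the Tconv libraries at 82.1, 161, 177, 62.8 and 50.5. Each PD1hi library was above every other library, while the Treg and Tconv libraries overlapped. Both Tconv libraries of experiment 5 were high within their population. The log2 fold change in PD1hi against Tconv was 1.27 ± 0.37 (limma adjusted p = 0.0236), and it missed the threshold on leaving out Tconv in experiment 3 or 6, or PD1hi in experiment 5, with adjusted p up to 0.107. Against Treg it was 0.75 ± 0.37, which did not pass (limma adjusted p = 0.213). The annotated transcript of Hist1h1e overlaps Hist1h2be and Gm11398 on the same strand, so reads in the overlap can belong to either gene.

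Hist1h1c moved the other way. Its scaled counts were 340, 367, 400, 223 and 247 in Tconv, 154, 225, 191, 167 and 151 in Treg, and 83.0, 157 and 132 in PD1hi. All PD1hi libraries lay below all Tconv libraries, and the Treg libraries lay mostly between them. Hist1h1c fell by 1.38 ± 0.28 on the log2 scale in PD1hi against Tconv (limma adjusted p = 0.00289). In Treg against Tconv the log2 difference was -0.80 ± 0.28 and did not pass (limma adjusted p = 0.0823). The remaining H1 genes, Hist1h1a and Hist1h1d, had means of 12.4 and 22.8 in PD1hi and 21.5 and 11.5 in Tconv, and neither passed in any comparison.

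While the H1 sums overlapped, their makeup differed between the populations. Of the scaled counts of the H1 genes, not corrected for transcript length, Hist1h1c made up 68.8% ± 7.05 in Tconv, 42.9% ± 1.81 in Treg and 26.8% ± 4.85 in PD1hi. By library its share was 60.2% to 75.5% in Tconv, 38.2% to 47.0% in Treg and 21.3% to 30.6% in PD1hi, so that no 2 populations overlapped. Hist1h1e made up 20.6% ± 5.30 in Tconv, 32.2% ± 6.38 in Treg and 49.5% ± 4.24 in PD1hi. Hist1h1b made up 3.91% ± 0.595 in Tconv, 17.5% ± 4.72 in Treg and 15.9% ± 3.55 in PD1hi. These shares are descriptions and were not tested.

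Among the H2A genes, Hist3h2a and Hist1h2ai formed a pair of opposite direction. Hist3h2a lies outside the large cluster, on chromosome 11, and gave 100, 69.7 and 104 for PD1hi, 182, 222, 166, 184 and 240 for Treg, and 211, 202, 197, 220 and 244 for Tconv. The PD1hi libraries were all below the others, and the Treg and Tconv libraries overlapped. Hist3h2a fell by 1.24 ± 0.24 in log2 against Tconv (limma adjusted p = 0.002) and fell by 1.08 ± 0.24 against Treg (limma adjusted p = 0.00699). Its annotated transcript overlaps Trim17 on the same strand and Gm44313 on the opposite strand, and the sources used here do not give the strand setting of the counting.

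Hist1h2ai was at 98.4, 139 and 122 in PD1hi, at 86.1, 84.3, 95.9, 41.2 and 59.3 in Treg, and at 55.4, 51.5, 73.6, 27.2 and 14.5 in Tconv. The PD1hi libraries were the highest, the nearest Treg library being just below the lowest of them. Its log2 fold change was 1.48 ± 0.42 in PD1hi against Tconv (limma adjusted p = 0.0212) and 0.67 ± 0.42 against Treg (limma adjusted p = 0.347). The first missed the threshold on leaving out PD1hi in experiment 5 or Tconv in experiment 6, with adjusted p up to 0.0836. Of its 50-base windows, 90.1% occur in another annotated gene, so its reads are uncertain between near-identical H2A copies, and Gm44367 overlaps it on the opposite strand. Hist1h2ai made up 42.9% ± 4.82 of H2A scaled counts in PD1hi, 22.9% ± 6.39 in Treg and 14.3% ± 6.21 in Tconv, while Hist3h2a made up 33.3% ± 8.86, 57.9% ± 9.02 and 68.3% ± 10.8. The remaining 3 H2A genes tested, with means of 12.8 to 15.1 over the populations, did not pass in any comparison.

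The H2B genes encode the partner of H2A. Hist1h2bc was at 16.4, 16.2 and 38.1 in PD1hi, 55.2, 98.1, 126, 78.7 and 77.6 in Treg, and 68.2, 63.3, 62.9, 59.2 and 69.3 in Tconv. PD1hi was lowest in every library, although its library of experiment 6 was above the other two. Hist1h2bc fell by 1.54 ± 0.39 in log2 against Tconv (limma adjusted p = 0.0107) and by 2.02 ± 0.39 against Treg (limma adjusted p = 0.00303).

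Hist1h2bj, a gene of low counts, was at 21.5, 26.3 and 17.4 in PD1hi, 12.2, 13.03, 12.2, 6.56 and 8.62 in Treg, and 2.13, 17.8, 1.07, 4.74 and 2.57 in Tconv. The PD1hi libraries were above all Treg libraries and 4 of the 5 Tconv libraries, and the first Tconv library of experiment 5 lay between 2 of the PD1hi libraries. Its log2 fold change was 2.07 ± 0.58 in PD1hi against Tconv (limma adjusted p = 0.0196). That call was lost on leaving out Tconv in experiment 3 or 6, or PD1hi in experiment 5, with adjusted p up to 0.0783, and 59.4% of its 50-base windows occur in another annotated gene. With the pseudocount of 16 in place of 1, the log2 fold change was 0.85.

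Hist2h2be was named for its level and not for its test. It had 89.2 ± 8.87 in PD1hi, 86.5 ± 21.1 in Treg and 152 ± 38.7 in Tconv, with overlapping libraries. Its log2 difference of -0.73 ± 0.29 in PD1hi against Tconv missed the threshold (limma adjusted p = 0.0899). The other 5 H2B genes tested did not pass in any comparison, with log2 differences from -1.04 to 0.96 in PD1hi against Tconv. For Hist2h2bb, the gene ID in the deposited table names Gm42743 in GENCODE M21, so its values may not be those of an H2B gene.

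Hist1h3e was the only H3 gene tested, and its counts were low. It was at 7.17, 14.2 and 5.44 in PD1hi, 8.43, 16.9, 21.6, 30.0 and 1.08 in Treg, and 32.0, 42.6, 37.3, 28.4 and 18.8 in Tconv. No PD1hi library reached the Tconv libraries, while the Treg libraries spread across both. Hist1h3e fell by 1.79 ± 0.49 in log2 against Tconv (limma adjusted p = 0.0174), which missed the threshold when the 13 libraries were separate values and without the Tconv value of experiment 3 or 5, with adjusted p up to 0.0784. With the pseudocount of 16 the log2 difference was -0.94. Of its 50-base windows, 73.4% occur in another annotated gene. Hist2h3c1 had a mean of 5.79 and was not tested, and its gene ID names Gm20634 in GENCODE M21.

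H4 forms a tetramer with H3 at the centre of the nucleosome. Hist2h4 was at 208, 231, 219, 218 and 329 in Tconv, 95.5, 121, 115, 83.4 and 132 in Treg, and 49.2, 94.98 and 108 in PD1hi. Every Tconv library was above every library of the other populations, which overlapped with each other. Hist2h4 fell by 1.54 ± 0.30 in log2 in PD1hi against Tconv (limma adjusted p = 0.00224) and fell by 1.08 ± 0.30 in Treg against Tconv (limma adjusted p = 0.0303). The Treg call was lost on leaving out any one of the 6 Treg and Tconv values, with adjusted p up to 0.131, and with libraries rescaled to equal totals. Only 1.0% of its 50-base windows occur in another annotated gene.

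Hist1h4d encodes the same core histone as Hist2h4 and did not pass in any comparison. Its scaled counts were 138, 157 and 148 in PD1hi, 108, 143, 91.2, 97.4 and 106 in Treg, and 122, 145, 178, 192 and 96.6 in Tconv, and the PD1hi and Tconv libraries overlapped. The log2 difference was 0.06 ± 0.23 in PD1hi against Tconv (limma adjusted p = 0.884). The share of H4 scaled counts was 28.5% ± 1.72 for Hist1h4d and 47.3% ± 5.11 for Hist2h4 in Tconv, against 46.1% ± 2.79 and 25.7% ± 8.18 in PD1hi. Of the other H4 genes, Hist1h4c had 0 reads in the PD1hi library of experiment 6, which allows up to 3.26 scaled counts for counting error only, and 47.1 and 54.6 scaled counts in the other PD1hi libraries. It did not pass in any comparison, nor did Hist1h4i and Hist4h4.

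**Figure D3:**
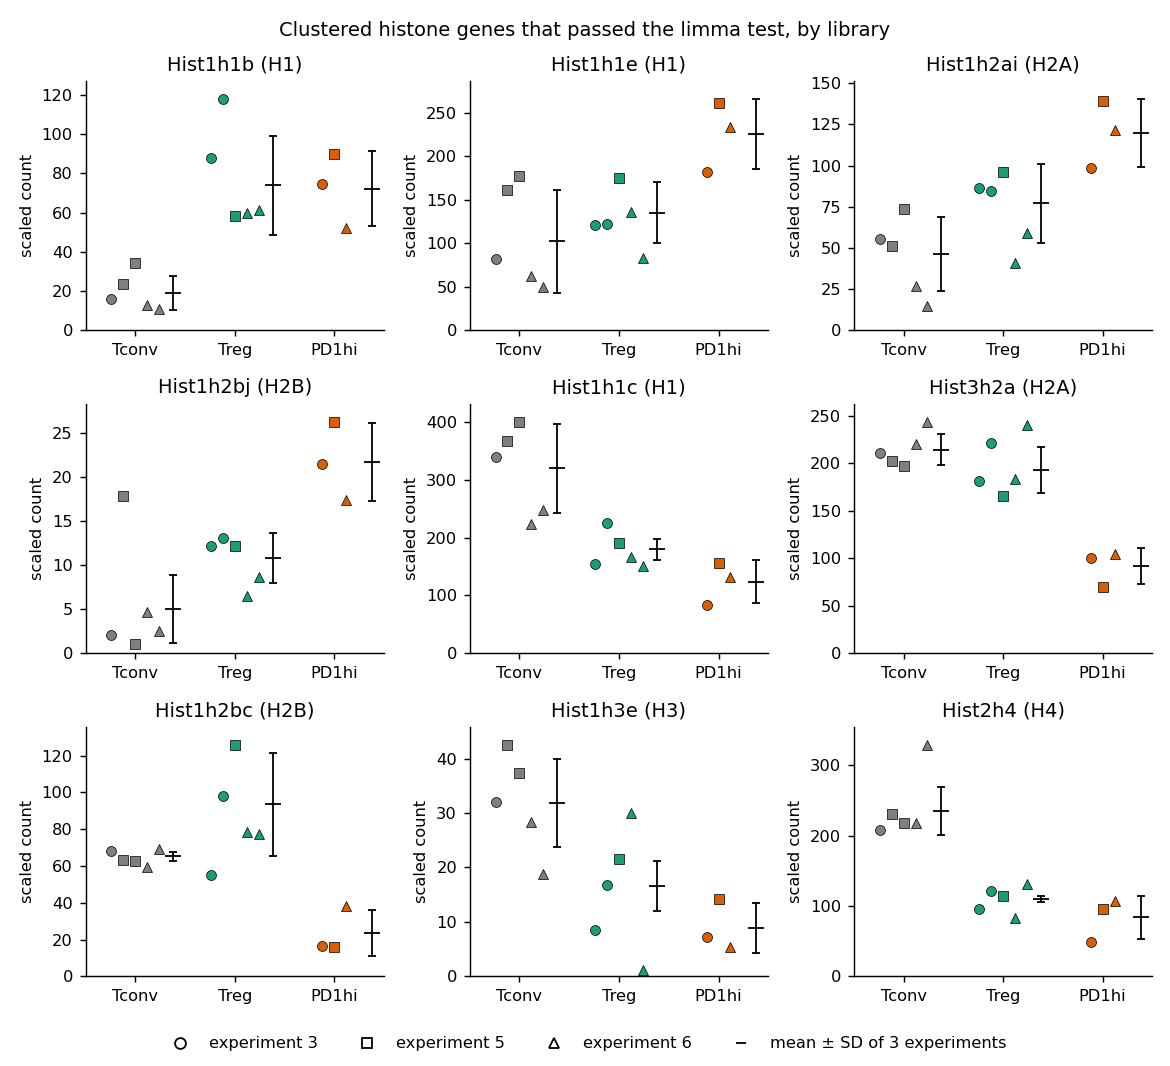
Scaled count (y axes) of the 9 clustered histone genes with a limma adjusted p under 0.05 in PD1hi against Tconv, by population (x axes); points are libraries, shapes are experiments and bars are the mean ± SD of 3 experiments. The first 4 genes are higher in PD1hi than in Tconv and the last 5 lower, and Treg sits near PD1hi for Hist1h1b and Hist2h4 and near Tconv for Hist3h2a.

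In PD1hi against Treg, 2 of the 24 genes were lower (8.33%), Hist3h2a and Hist1h2bc, beside 8.39% of all genes tested. By limma, 0 were higher, beside 8.16% of all genes, and the count was also 0 at an unadjusted p under 0.05 and with limma voom on recovered reads. The median log2 fold change was -0.34 for the 24 genes and -0.01 for all genes tested. Treg against Tconv called 1 higher gene (4.17%), Hist1h1b, beside 8.73% of all genes, and 1 lower gene (4.17%), Hist2h4, beside 5.66%. The medians were -0.15 for the 24 genes and 0.01 for all genes. The share of members called in these comparisons was near or below that of all genes. The comparisons share populations and are not independent of each other.

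The called genes were laid beside the annotated length of their transcripts after the stop codon, since processed replication histone mRNAs end soon after it. In the longest GENCODE M21 transcript, that stretch was 0 bases for Hist1h1b and Hist1h2ai, 66 for Hist1h2bj and 1209 for Hist1h1e, the 4 genes higher in PD1hi than in Tconv. It was 421 bases for Hist1h3e, 742 for Hist1h2bc, 880 for Hist1h1c, 1311 for Hist2h4 and 1700 for Hist3h2a, the 5 lower genes. The median was 33 bases for the higher and 880 for the lower genes, and 439.5 for the 14 genes that were not called and have an annotated stop codon. For Hist1h1b and Hist1h2ai the annotated transcript ends at the stop codon. Their 0 means that no stretch after it is annotated, not that the stretch is short, and the median of 33 rests on it. Hist1h1e stands among the lower genes in length, and genes with long stretches such as Hist1h4d (822 bases), Hist2h2be (2192) and Hist1h1d (4931) were not called. Annotated length is not a measure of the RNA in these cells. This relation was looked for after the calls were known, received no test, and the role of 3′ end processing was not tested.

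**Figure D4:**
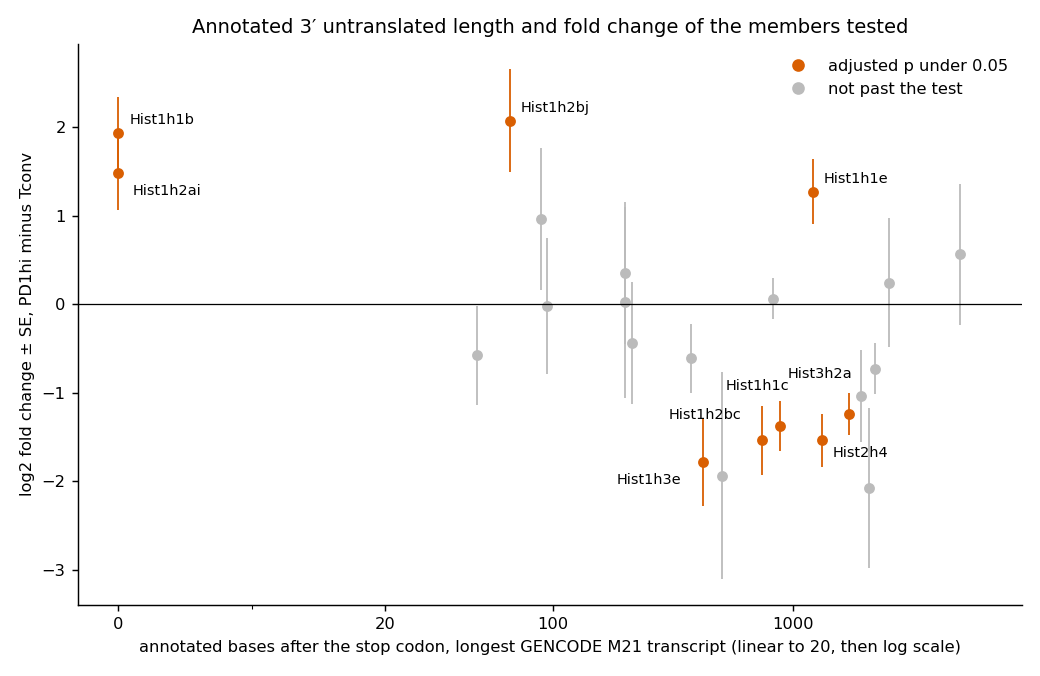
Log2 fold change ± SE in PD1hi against Tconv (y axis) of the 23 tested genes with an annotated stop codon, against annotated bases after it (x axis, linear to 20 and log above). Orange marks a limma adjusted p under 0.05: the lower genes lie between 421 and 1700 bases, and 3 of the 4 higher genes at 66 or fewer. Hist1h1b and Hist1h2ai are at 0 because their annotation ends at the stop codon.

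Promoters were read because genes of 1 histone type moved in opposite directions. RefSeq promoters (GRCm38.p6) matched 40 of the 46 genes, and a window of 300 bases, 250 before to 50 after the start, was searched on both strands for 4 motifs that do not overlap one another. They were CCAAT, which binds NF-Y, the TATA box written as TATAAA, the octamer motif of histone promoters written as ATTTGCAT, and the H1 box of linker histone genes written as AAACACA. The H1 box was added after these promoters had been read. The 250 bases before the start follow for the called H1 genes and the pair of H2A genes, with each match to a motif or its complement in capitals. On chromosome 13, they are chr13:21780626-21780875 (minus strand) for Hist1h1b, chr13:23622559-23622808 (minus strand) for Hist1h1e, chr13:23738557-23738806 (plus strand) for Hist1h1c and chr13:21716162-21716411 (plus strand) for Hist1h2ai, and on chromosome 11, chr11:58954435-58954684 (plus strand) for Hist3h2a.
Hist1h1b: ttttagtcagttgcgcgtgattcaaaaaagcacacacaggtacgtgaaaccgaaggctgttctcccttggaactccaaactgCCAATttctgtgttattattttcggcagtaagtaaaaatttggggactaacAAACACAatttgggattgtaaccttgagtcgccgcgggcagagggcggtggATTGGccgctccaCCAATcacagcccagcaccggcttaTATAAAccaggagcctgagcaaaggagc
Hist1h1e: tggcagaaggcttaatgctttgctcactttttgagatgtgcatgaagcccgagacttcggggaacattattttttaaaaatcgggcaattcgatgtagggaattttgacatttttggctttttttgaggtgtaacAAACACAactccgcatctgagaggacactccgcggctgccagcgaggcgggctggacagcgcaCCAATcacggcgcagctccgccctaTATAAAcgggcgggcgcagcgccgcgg
Hist1h1c: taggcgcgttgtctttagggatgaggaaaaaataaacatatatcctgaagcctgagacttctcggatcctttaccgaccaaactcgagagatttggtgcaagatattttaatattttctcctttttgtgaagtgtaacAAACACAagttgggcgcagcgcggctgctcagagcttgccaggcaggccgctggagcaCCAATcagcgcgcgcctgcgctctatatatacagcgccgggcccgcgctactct
Hist1h2ai: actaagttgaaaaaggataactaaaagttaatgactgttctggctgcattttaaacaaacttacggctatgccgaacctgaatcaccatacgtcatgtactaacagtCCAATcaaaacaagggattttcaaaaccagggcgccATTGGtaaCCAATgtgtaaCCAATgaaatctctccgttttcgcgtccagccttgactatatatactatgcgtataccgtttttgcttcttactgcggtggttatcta
Hist3h2a: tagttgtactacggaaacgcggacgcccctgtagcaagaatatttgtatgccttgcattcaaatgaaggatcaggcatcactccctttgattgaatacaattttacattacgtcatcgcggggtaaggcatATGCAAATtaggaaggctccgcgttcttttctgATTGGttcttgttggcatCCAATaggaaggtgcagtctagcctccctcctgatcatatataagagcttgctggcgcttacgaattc
The H1 box and CCAAT stand in all 3 H1 promoters, and TATAAA in those of Hist1h1b and Hist1h1e. TATAAA was searched as an exact string. The promoters of Hist1h1c, Hist1h2ai and Hist3h2a hold tatata stretches that it misses, so lack of a match is not lack of a similar sequence. The octamer motif stands in the Hist3h2a promoter and not in that of Hist1h2ai, which holds 4 matches to CCAAT.

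Over the 40 member promoters, CCAAT was found in 33 (82.5%), beside 37.9% of 27025 promoters of all genes, and only 2 of the 9 H4 promoters held it. TATAAA was in 21 (52.5%), beside 14.2%. ATTTGCAT was in 9 (22.5%), beside 1.75%, and these were 4 of 10 H2A and 5 of 11 H2B promoters. The windows of Hist1h2ae and Hist1h2bg overlap on opposite strands, as do those of Hist1h2ak and Hist1h2bn. A match in such an overlap counts for both genes, and the octamer of Hist1h2ae and Hist1h2bg is the same stretch. AAACACA was in 4 of 5 H1 promoters and 1 H2B promoter, beside 7.14% of all promoters. A match is a description of the sequence and not of binding.

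Genes outside the clusters were set beside these from lists chosen with earlier results of these data known. Of 10 non-clustered histone genes tested, 4 rose in PD1hi against Tconv (40%, beside 14.2% of all genes) and none fell, with a median log2 fold change of 0.58. The count was 6 with experiment as a replicate block, with 13 libraries as separate values and with equal totals, and 3 to 5 on leaving out 1 value, while 1 was lower without PD1hi in experiment 6. H2afy3, a macroH2A variant, had a log2 fold change of 2.28 ± 0.71 (limma adjusted p = 0.0328), which missed the threshold on leaving out PD1hi or Tconv in experiment 3 or in experiment 6, with adjusted p up to 0.128. H1f0, the linker histone of cells that have stopped dividing, was at 256 ± 37.5 for PD1hi, 88.0 ± 13.6 for Treg and 62.4 ± 34.7 for Tconv. It rose by 2.17 ± 0.37 in log2 against Tconv (limma adjusted p = 0.001) and by 1.53 ± 0.37 against Treg (limma adjusted p = 0.0138). The call against Treg was lost on leaving out Treg in experiment 3 (adjusted p = 0.0515) or PD1hi in experiment 5 (adjusted p = 0.0508). Cenpa, the H3 variant of centromeres, rose by 0.70 ± 0.17 in PD1hi (limma adjusted p = 0.00798) and by 0.85 ± 0.17 in Treg (limma adjusted p = 0.00401), both against Tconv. H2afz, a variant of H2A made through the cell cycle, rose by 1.0 ± 0.19 in Treg against Tconv (limma adjusted p = 0.00321).

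Of 23 genes of histone gene transcription and mRNA processing, 3 rose (13%, beside 14.2% of all genes) and 1 fell (4.35%, beside 11.9%) in PD1hi against Tconv, with a median of 0.07. The higher count was 5 with the replicate block and with equal totals, 1 on leaving out PD1hi in experiment 3 and 6 on leaving out PD1hi in experiment 6. The lower gene, Cpsf3, an enzyme that cuts the 3′ end of mRNAs, differed by -0.53 (limma adjusted p = 0.0305) and was lost under several settings, equal totals among them. Slbp, which binds the stem-loop, had 2693 ± 892 in PD1hi, 2587 ± 407 in Treg and 1963 ± 258 in Tconv, and its log2 difference of 0.40 ± 0.24 against Tconv did not pass (limma adjusted p = 0.246), while without PD1hi in experiment 6 it was 0.72 and passed (adjusted p = 0.00446). Npat, the activator of histone gene transcription, differed by 0.07 (limma adjusted p = 0.847) and Casp8ap2, its partner at the histone loci, by -0.15 (limma adjusted p = 0.596). Ccne2, a cyclin of the entry into DNA replication, rose by 1.07 ± 0.28 (limma adjusted p = 0.013), and missed the threshold without PD1hi in experiment 3 (adjusted p = 0.0519). Rdbp, a subunit of the elongation factor NELF, rose by 0.77 ± 0.17 (limma adjusted p = 0.00509). Of 22 histone chaperones, 2 rose and 2 fell (9.09% each, beside 14.2% and 11.9% of all genes). The higher count was 1 on leaving out PD1hi in experiment 5 or Tconv in experiment 6, and 4 with equal totals. Chaf1a, a subunit of the CAF-1 chaperone, had a log2 fold change of 2.24 ± 0.63 (limma adjusted p = 0.0204), which missed the threshold on leaving out Tconv in experiment 6 or PD1hi in experiment 5 or 6, with adjusted p up to 0.0913. Asf1b, a carrier of H3 and H4 during DNA replication, rose by 1.10 ± 0.18 (limma adjusted p = 0.00063), and Daxx, which deposits an H3 variant, fell by 0.75 ± 0.15 (limma adjusted p = 0.00215).

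In the same comparison, the cell cycle genes that passed were higher. Of 28 DNA replication genes, 16 rose in PD1hi against Tconv (57.1%, beside 14.2% of all genes) and none fell, with a median of 0.71, while 12 did not pass and the lowest log2 difference was -0.37. All 20 mitosis genes rose, with a median of 1.88, led by Nusap1 (2.22), Cdk1 (2.19) and Bub1 (2.19). Mcm10, a factor of replication initiation, rose by 1.96 (limma adjusted p = 0.00187). Rrm2, which makes the DNA building blocks, was at 2411 ± 765 for PD1hi, 1924 ± 500 for Treg and 679 ± 159 for Tconv, and Tk1, a thymidine kinase, was at 503 ± 95.1, 393 ± 35.8 and 131 ± 36.9. In Treg against Tconv, 7 of the 28 replication genes rose (25%, and 3 to 9 genes on leaving out 1 value), as did 18 of the 20 mitosis genes (90%). The share of all genes higher in that comparison was 8.73%. The clustered histone genes, had 4 higher and 5 lower, and the difference between the lists was not tested.

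Each library held 15971126 to 24216463 reads in genes, with the fewest in PD1hi of experiment 6. Pdcd1, which encodes PD-1, and Foxp3 followed the sort. Pdcd1 was at 37372 ± 3290 for PD1hi, 1955 ± 38.5 for Treg and 1132 ± 136 for Tconv, and Foxp3 at 106 ± 33.4, 15889 ± 513 and 292 ± 35.8. The summed T cell markers were at 98920 or more in every library. Other marker sums also differed between populations. CD8 T and NK cell markers summed to 331 to 575 (PD1hi), 417 to 631 (Treg) and 1911 to 2124 (Tconv). Of 4 tested genes, 3 were lower in PD1hi than in Tconv. They were Klrb1c, Klrk1 and Cd8b1, whose Tconv means were 984 ± 59.0, 595 ± 81.0 and 424 ± 37.7. Cd8a was low, with means of 6.78 (PD1hi), 5.55 (Treg) and 8.43 (Tconv), and was not tested. Ncr1 averaged 21.9, 30.6 and 33.3 in that order and did not pass in PD1hi against Tconv (limma adjusted p = 0.374). B cell markers were at 178 to 342, 555 to 963 and 89.1 to 183, with 1 of 4 higher, and Cd79b, a B cell receptor subunit, was at 130 ± 39.4, 629 ± 83.8 and 57.8 ± 3.12. Germinal centre B cell markers were at 1149 to 1580, 225 to 267 and 90.0 to 199, with 2 of 2 higher, and plasma cell markers at 3513 to 6532, 3776 to 7167 and 1702 to 2684, with 2 of 4 higher. Erythroid markers were at 51.5 to 67.4, 34.5 to 71.5 and 8.55 to 36.2, with 0 of 2 called at an adjusted p under 0.05, and the myeloid sums overlapped between the populations. Of 6 myeloid markers tested, Itgam was lower in PD1hi, by -3.15 in log2 against Tconv (limma adjusted p = 0.000213) and -2.99 against Treg (limma adjusted p = 0.000454), and the other 5 did not pass in any comparison. The part of such cells in the histone gene levels was not tested.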

How the data were processed

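RNA-seq of 13 libraries (3 PD1hi, 5 Treg, 5 Tconv) was analysed from 1 table of 18649 genes. The authors deposited it in the unit signal: by its name and values, reads scaled with a size factor per library, plus 1. After 1 was taken off, each deposited signal value was a multiple, to within 0.001 reads, of what a single read is worth in that library, and is called the scaled count here. The labels' protocols name Trizol extraction, depletion of ribosomal RNA and an Ion Total RNA-seq kit. Per the submitters' processing notes, the tools were Picard, HTSeq 0.5.4 and limma, with mm9, hg19 and GRCh37 as builds. Which build and aligner served the counting, and on which strand, is not given in the sources used here.

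Values were averaged within each experiment and population, which left 9. Reads of libraries averaged together differed by 8.38 to 80.9 times sampling noise over all genes (chi-square per degree of freedom), so none was a copy of another. A mean scaled count of at least 10 was required, and 14177 genes were tested with limma 3.58.1 in R 4.3.3 on log2(scaled count + 1). The test was 2-sided, with a trend on level, the spread shared by the 3 populations, and Benjamini-Hochberg adjustment over every gene tested. The titles tie replicate numbers to experiments: deviations of Treg and Tconv from their means correlated with r of 0.218 to 0.298 in every experiment, and pairs with PD1hi with r of -0.07 to 0.197. The fit was tested on simulated data with known changes. The limit for a count of 0 is 3 reads, for counting error alone, as PCR reads do not stand for separate molecules. Alternatives changed the pseudocount, the minimum, the scaling, the groups, the libraries and the fit.

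Named genes are every histone member past the threshold and the 2 with the highest mean of each type, of the other lists up to 3 called genes with the largest change per list and comparison (all of them for PD1hi against Tconv, and H2afz for the others), and Slbp, Npat and Casp8ap2. Other names were chosen after their values were seen: Hist1h1a, Hist1h1d, Hist2h2bb, Hist1h4c, Hist1h4i, Hist4h4, Hist3h2ba, Hist1h2be, Hist1h2ae, Hist1h2bg, Hist1h2ak, Hist1h2bn, H3f3b, Klrb1c, Klrk1, Cd8b1, Cd8a, Ncr1, Cd79b and Itgam. The members and lists were chosen with earlier results of these data known. Transcripts are those of GENCODE M21 (GRCm38) and promoters those of RefSeq (GRCm38.p6), while the notes name mm9 for mouse, so they describe the genes and not the counting. Of the members, 38 were matched by ID and 8 by symbol.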

Additional observations from a re-analysis of the deposited data

Results flagged for a closer look

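In 60 groups of 5 libraries (Treg or Tconv, members tested and their sums), 3 had a highest library set apart from the rest, where its gap to the nearest library over the whole range was above the 95% critical value of 0.71 of Dixon's test. Chance alone sets apart about 1 in 20 such groups. Hist2h4 in Tconv was at 329 in the second library of experiment 6 and at 208 to 231 in the other 4 (gap over range 0.812). Hist1h2bj in Tconv was at 17.8 in the first library of experiment 5 and at 1.07 to 4.74 in the others (0.781). Hist3h2ba, an H2B gene, was at 66.8 in the Treg library of experiment 5 and at 16.9 to 31.3 in the others (0.712). The cause of each was not tested.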

How the results depend on the processing

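Results were computed under 18 other settings, or 17 for Hist1h2bj and Hist1h3e, which have no value at a minimum mean of 50. Hist1h1c, Hist1h1b, Hist3h2a, Hist1h2bc and Hist2h4 kept their call in PD1hi against Tconv in all 18, as did Hist3h2a and Hist1h2bc in PD1hi against Treg and Hist1h1b in Treg against Tconv. Leaving out 1 of the 9 values, the number of members higher in PD1hi than in Tconv ran from 1 to 4, with 4 in the main result, and Tconv of experiment 3 or 6 and PD1hi of experiment 5 lowered it. The number lower in Treg than in Tconv was 1 in the main result and ran from 0 to 2 with 1 value left out. It was 2 with a pseudocount of 16, 2 with only both populations compared in the fit, 2 with limma voom on recovered reads, 2 without the second Treg library of experiment 3, 4 with 13 libraries as separate values and 0 with equal totals. Over the named members and these settings a call was lost 18 times and gained 7 times, and no called log2 fold change turned sign. Fits that leave 1 population with 2 values have fewer samples, and the cause of the other changes was not tested. With experiment as a replicate block, the counts were 4 higher and 5 lower in PD1hi against Tconv, 0 and 2 against Treg, and 1 and 1 in Treg against Tconv, so no count of members changed. Each experiment number holds every population. Deviations of Treg and Tconv correlated above 0.1 in each experiment, and those of the pairs with PD1hi did not all do so. With so few values, these correlations cannot show whether PD1hi is paired with the others. Of the 22 genes not tested for their low counts, 13 share over 50% of their windows with another gene, against 4 of the 24 tested, and the part of shared sequence or depth in this was not tested.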

Other observations

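Over the 13 libraries, the genes whose log2 level ran most like the summed clustered histone genes, among 10065 other genes with a mean of at least 100, were Runx3 (Pearson r = 0.949), Rpl13 (0.917), Vps37b (0.915), Gpx1 (0.913), Ndufa10 (0.908), Wibg (0.902), Rrp9 (0.9), AI413582 (0.896), Ckb (0.893) and Lat (0.892). These values describe 13 libraries of 3 populations that share size factors and experiments, and they carry no test.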
